A study of Mus musculus with 7 samples.

Results

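The 40 genes described here run the cell cycle of dividing cells: 10 act in DNA replication, 20 in mitosis or the entry into it, and 10 regulate the passage through G1. Dimethylation of lysine 79 of histone H3 (H3K79me2) over these genes was measured by ChIP-seq, in which chromatin is pulled down with an antibody and its DNA sequenced, in macrophages grown from mouse bone marrow. A region of the read-count table was assigned to a gene when it overlapped the gene's RefSeq span, and each gene was represented by its region with the most reads on average. All 40 genes had a region, against 43.4% of all 21900 coding genes, and 91 of the 29397 regions in the table overlapped them.

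Marrow of C57BL/6 mice was cultured for 7 to 8 days with 15% L929-conditioned medium as the source of M-CSF, the growth factor of macrophages. During that time the cells received SGC0946 at 1 µM, which blocks the histone methyltransferase DOT1L, or DMSO as its solvent, with 3 libraries in each group that the design text calls biological replicates. The growth protocol speaks of both WT and KO mice without saying which mice gave these cells, and no group carries a named allele. The libraries come from bulk chromatin of 10 to 20 M cells, so fewer marked cells and less mark per cell cannot be told apart. The reads counted over all regions came to 16.735, 16.992 and 19.521 M in the DMSO libraries and 3.132, 3.006 and 2.953 M in the SGC0946 libraries.

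DOT1L places H3K79me2 on nucleosomes in the first part of transcribed genes, where it travels with RNA polymerase elongation. In the cell cycle, D-type cyclins with Cdk4 and then cyclin E with Cdk2 inactivate the retinoblastoma protein, which frees E2F factors to switch on replication genes. The mitotic genes follow in G2, largely through promoters with CCAAT boxes and a cell cycle genes homology region (CHR). Macrophage precursors divide under M-CSF before they mature, which makes Mki67, the gene of the proliferation antigen Ki-67, a marker of cycling cells in such cultures.

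The marked regions lay at the beginnings of the genes. Of the 31 genes with an entry in the RefSeq promoter table, 25 had a region that covered a listed transcription start, 27 had one within 100 bp of a start and 30 within 1 kb. Ccne1 was the exception, with a region 1082 bp inside the gene. The regions measured 629 bp (Ccne1) to 58864 bp (E2f3), with a median of 5436 bp, and covered a median of 36.9% of the gene. Replication genes had the shortest regions, with a median of 4222 bp, against 5052 bp for G1 genes and 6307 bp for mitotic genes.

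**Figure D1:**
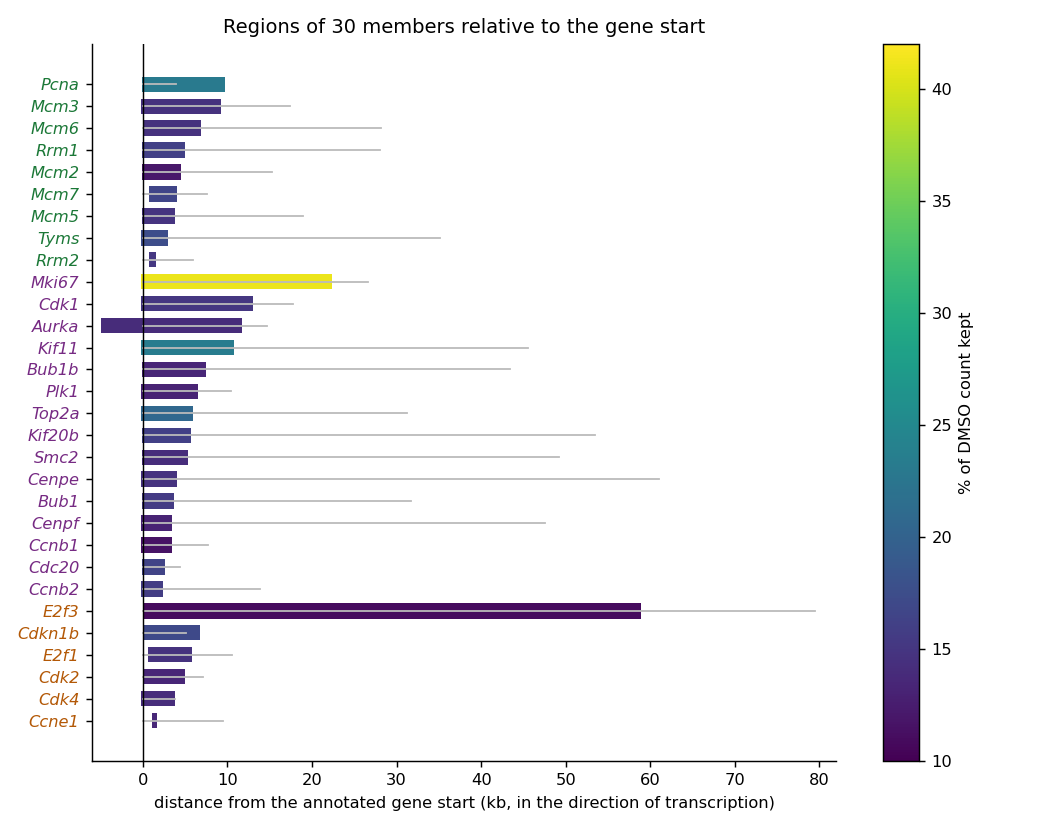
Position of the region that stands for each of 30 genes, as distance from the annotated gene start in kb, with positive values in the direction of transcription. Bars are the regions, coloured by the percent of the DMSO count kept with SGC0946, grey lines are the gene spans, and label colours mark replication (green), mitosis (purple) and G1 (orange). Most bars begin at or near the start, the Aurka bar reaches upstream over Cstf1, and the Mki67 bar alone has the colour of over 40% kept; Ccnd3, whose region lies 344 bp from its second listed start, and the 9 genes without an entry are not drawn.

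Promoter sequences from RefSeq (build GRCm38.p6) are shown for 7 genes at the extremes of the comparison, because the marked regions begin there and the promoters carry the cell cycle elements. Each covers the 250 bases before the start, read 5′ to 3′ on the gene's own strand. Capitals mark matches on either strand to the CHR (TTTGAA), the CCAAT box (CCAAT) or an E2F site (TTTCCCGC, TTTGGCGC, TTTCGCGC or TTTGCCGC), and matches of different motifs never overlapped in the 31 promoters. The sequences belong to Mki67 (chr7:135716380-135716629, minus strand), Kif11 (chr19:37376132-37376381, plus strand), Top2a (chr11:99024190-99024439, minus strand), Ccnb1 (chr13:100786487-100786736, minus strand), Pcna (chr2:132253181-132253430, minus strand), Mcm2 (chr6:88898781-88899030, minus strand) and E2f3 (chr13:29986064-29986313, minus strand).
Mki67: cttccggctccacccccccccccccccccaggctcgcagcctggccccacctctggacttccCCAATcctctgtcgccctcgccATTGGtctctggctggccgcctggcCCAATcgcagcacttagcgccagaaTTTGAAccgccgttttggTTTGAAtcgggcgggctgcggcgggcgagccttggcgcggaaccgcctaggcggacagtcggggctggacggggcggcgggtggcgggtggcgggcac
Kif11: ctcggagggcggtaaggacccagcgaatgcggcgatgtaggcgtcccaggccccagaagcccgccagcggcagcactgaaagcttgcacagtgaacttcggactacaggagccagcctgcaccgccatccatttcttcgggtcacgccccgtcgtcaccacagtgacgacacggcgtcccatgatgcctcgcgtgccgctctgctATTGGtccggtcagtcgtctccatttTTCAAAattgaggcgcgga
Top2a: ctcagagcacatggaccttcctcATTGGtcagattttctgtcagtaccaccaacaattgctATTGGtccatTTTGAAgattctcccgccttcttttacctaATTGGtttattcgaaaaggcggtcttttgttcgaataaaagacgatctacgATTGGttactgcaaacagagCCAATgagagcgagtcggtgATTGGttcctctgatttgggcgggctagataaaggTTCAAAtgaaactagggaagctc
Ccnb1: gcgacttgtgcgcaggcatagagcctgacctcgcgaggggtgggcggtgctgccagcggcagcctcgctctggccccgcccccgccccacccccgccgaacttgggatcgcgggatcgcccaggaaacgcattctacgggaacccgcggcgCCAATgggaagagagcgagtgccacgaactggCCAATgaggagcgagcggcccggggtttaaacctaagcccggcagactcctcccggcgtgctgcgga
Pcna: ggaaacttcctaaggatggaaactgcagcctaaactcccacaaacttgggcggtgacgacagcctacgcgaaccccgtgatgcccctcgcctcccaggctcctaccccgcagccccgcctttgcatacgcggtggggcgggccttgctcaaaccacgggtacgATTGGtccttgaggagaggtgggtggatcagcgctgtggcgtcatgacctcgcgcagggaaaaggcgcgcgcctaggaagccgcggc
Mcm2: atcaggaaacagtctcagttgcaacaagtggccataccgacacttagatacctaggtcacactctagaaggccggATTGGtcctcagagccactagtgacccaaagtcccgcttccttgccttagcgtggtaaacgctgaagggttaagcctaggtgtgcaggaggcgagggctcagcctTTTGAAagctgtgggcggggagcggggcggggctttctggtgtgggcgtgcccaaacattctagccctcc
E2f3: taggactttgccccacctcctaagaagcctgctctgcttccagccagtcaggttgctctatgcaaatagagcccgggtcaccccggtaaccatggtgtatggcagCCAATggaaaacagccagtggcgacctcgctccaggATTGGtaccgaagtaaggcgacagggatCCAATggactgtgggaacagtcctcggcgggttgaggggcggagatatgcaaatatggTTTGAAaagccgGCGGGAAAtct

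The 3 mitotic promoters at the top carry both CHR and CCAAT letters, and Ccnb1 shows 2 CCAAT boxes without the CHR letters in this window. Mcm2 and E2f3, at the lower end of the comparison, also carry both, and Pcna, at the upper end, has no CHR letters. By the share calls given below, both were in 3 of 4 promoters of genes that rose. They were in 4 of 13 that fell and 2 of 14 that did not pass, against 5.55% of all promoters. Each member entered with its outermost promoter only, while the background counts every listed promoter. The 3 that rose with both are all mitotic, and 7 of 15 mitotic promoters carry both, so call and role are not separated here. The region covered all 250 bases of the Mki67 promoter, 225 of Kif11, 223 of Top2a, 178 of Ccnb1, 113 of Pcna, 51 of Mcm2 and 0 of E2f3, whose region begins 57 bp inside the gene. Among the 15 mitotic genes with an entry, 7 had the CHR and 14 the CCAAT box, against 16% and 33.8% of all 32851 promoters. Of the 9 replication genes, 8 had a CCAAT box, and 3 (33.3%) had an E2F site against 1.86% of all promoters. In the 7 G1 genes the counts were 2 for E2F, 1 for the CHR and 3 for CCAAT. A match describes the sequence only, and a missing match says only that these letters are not in this window. The promoters of Ccnd1, Ccnd2, Rb1, Mcm4, Smc4, Ccna2, Wee1, Aurkb and Tpx2 are not shown.

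Setting SGC0946 against DMSO asks how far the reads over these genes fell when DOT1L was blocked, and whether some genes kept more than others. No spike-in is named and only a nominal depth of 40 M reads is given. A difference in depth or recovery between libraries would lower all counts alike. The percent kept is therefore a ratio of counts and not a measured amount of remaining mark. Every one of the 40 regions held fewer reads in each SGC0946 library than in any DMSO library, as did 99.3% of coding genes. On counts without scaling all 40 fell (edgeR quasi-likelihood test, adjusted p under 0.05), against 99.8% of coding genes and 99.7% of all regions. The genes kept 10.9% (E2f3) to 41.1% (Mki67) of the mean DMSO count, with a median of 15.1%. The 9089 coding genes tested had a median of 14% and quartiles of 12.4% and 17%.

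**Figure D2:**
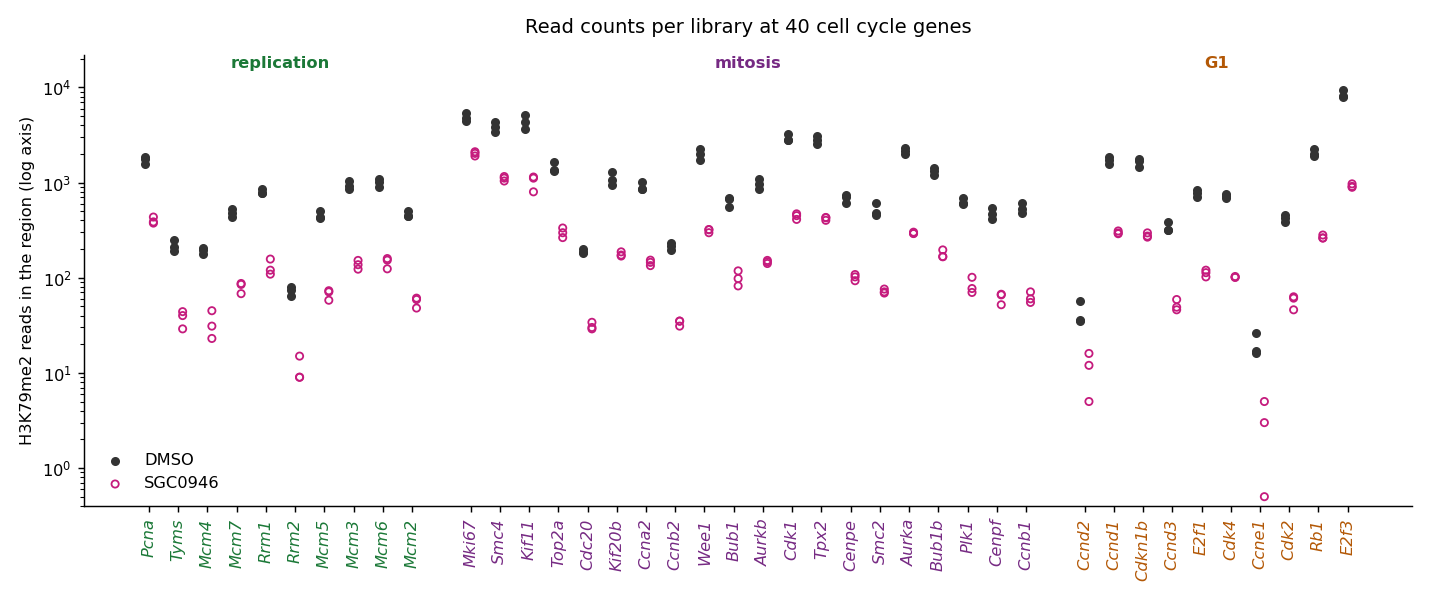
H3K79me2 read counts (log axis) in the region of each of the 40 genes, with 1 point per library for DMSO (filled) and SGC0946 (open). Genes are ordered in each group by the percent of the DMSO count kept. The open points lie below the filled points for every gene; the count of 0 for Ccne1 in SGC0946 replicate 3 is drawn at 0.5.

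Differences among the genes were read from each region's share of its library, given in CPM (the region's reads scaled to 1 M counted reads), since a share compares a region with the rest of the same library. All 40 regions passed the filter on low counts. In share 5 genes rose, 15 fell and 20 did not pass (edgeR quasi-likelihood test, adjusted p under 0.05). The same test called 9.98% of coding genes higher and 50.1% lower, and 6.16% and 23.3% of all regions. The share of a region can rise while its counts fall, and that was so for each of the 5. In 4 genes all SGC0946 shares lay above all DMSO shares (11.9% of coding genes), in 20 they lay below (56.8% of coding genes), and in 16 the groups overlapped.

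Scaling moved these calls. Leaving out SGC0946 replicate 1 left 8 falls beside the same 5 rises. With TMM factors 5 genes fell, with DESeq2 size factors 4, and the same 5 rose under both. Scaling on the sparsest 25% of regions, which treats their reads as equal between libraries, lowered the median of coding genes by a log2 change of -0.84 and left Mki67 as the 1 gene that rose beside 36 that fell. Of all regions tested, 23.3% fell with library totals, 16.9% without SGC0946 replicate 1, 15.1% with TMM and 13.8% with DESeq2 size factors. The sparse scaling called 0.681% of all regions higher and 68.3% lower. Values relative to the coding-gene median are given beside the calls. A change of scaling shifts all regions nearly alike, so these values hardly depend on it by construction. Their narrow range over the scalings is therefore no support for them.

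No G1 regulator rose in share, 4 of 10 fell (E2f3, Rb1, Cdk2 and Cdk4) and 6 did not pass, with a median log2 share change of -0.26 and a median of 14.3% kept. E2f3, a transcription factor that activates replication genes, had the longest region of all members and the lowest percent kept. Its region (chr13:29927144-29986007) covered 74.1% of the gene. E2f3 held 8120, 7920 and 9400 reads with DMSO and 892, 969 and 912 with SGC0946. Its share went from 485, 466 and 482 CPM to 285, 322 and 309 CPM, with no overlap, a log2 change of -0.65 ± 0.04 (SE, edgeR adjusted p = 1.7e-20). Relative to the coding-gene median it lay between -0.38 and -0.34 on the log2 scale over 5 scalings. Of coding genes, 94.3% kept at least as much as E2f3.

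Rb1, the retinoblastoma protein that holds E2F in check, gave different answers along the gene. The region that stands for it (chr14:73305036-73325737) had 1981, 1906 and 2255 reads with DMSO and 281, 261 and 262 with SGC0946. Its share fell by 0.38 on the log2 scale (SE 0.06, edgeR adjusted p = 4.6e-07). A further Rb1 region of 7677 bp (chr14:73235792-73243468), which also overlaps the receptor gene Lpar6, kept 21.0% where the first kept 13.1%, and it passed the test as higher in share (log2 0.30). With all 10 regions of Rb1 summed, the share change was -0.09 and did not pass (edgeR adjusted p = 0.119).

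Cdk2, the kinase of the G1 to S step, went from 388, 429 and 453 to 61, 63 and 46 reads, all SGC0946 shares lay below those of DMSO, and its share fell by 0.35 (SE 0.13, edgeR adjusted p = 0.0245). This call was lost without SGC0946 replicate 1 (adjusted p = 0.0546) or replicate 3 (0.259), and with TMM factors (0.215), DESeq2 size factors (0.253) or the DESeq2 Wald test (0.358). The region of Cdk2 overlaps the melanosome gene Pmel and that of Cdk4 (14.1% kept) the tetraspanin gene Tspan31, so these counts cannot be credited to the cell cycle gene alone. The call of Cdk4 was lost without SGC0946 replicate 1 or replicate 2, and with TMM factors and both DESeq2 settings. At the upper end of the G1 group stood genes that did not pass the test. Ccnd1, the D-type cyclin, had 1578, 1716 and 1853 reads with DMSO and 295, 290 and 310 with SGC0946, and kept 17.4% with overlapping shares. Cdkn1b, which encodes the inhibitor p27, had 1460, 1676 and 1753 reads against 296, 267 and 274, and kept 17.1%, also with overlapping shares.

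The remaining G1 genes were weakly marked or near the median. Ccnd2 had a region of 726 bp with 36, 35 and 57 reads against 12, 16 and 5, and kept 25.8% with a log2 share change of 0.60 ± 0.32 (SE, edgeR adjusted p = 0.18), or -0.26 with scaling on the sparsest regions. Without SGC0946 replicate 3, which had the 5 reads, the change was 0.93 and passed (adjusted p = 0.0266). Ccne1, the cyclin E gene, had 17, 16 and 26 reads against 3, 5 and 0. Its summed counts of 59 and 8 give 13.6% kept, with an exact Clopper-Pearson 95% interval of 5.59% to 28.5% for counting error only, which spans the values of most other members. Ccnd3 kept 15.1% and E2f1 14.6%, neither of which passed the test.

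Among the replication genes 1 of 10 rose in share, 3 fell and 6 did not pass, with a median log2 share change of -0.13 and a median of 15.6% kept. Pcna, the sliding clamp of DNA polymerases, was the one that rose. Its region (chr2:132243441-132253293) had 1585, 1748 and 1873 reads with DMSO and 434, 386 and 375 with SGC0946, and kept 23.0%. Its share went from 94.7, 103 and 95.9 CPM to 139, 128 and 127 CPM, with every SGC0946 library above every DMSO library. The log2 share change was 0.43 ± 0.06 (SE, edgeR adjusted p = 9.3e-09) and -0.40 with scaling on the sparsest regions. Relative to the coding-gene median Pcna lay between 0.69 and 0.72, and 8.92% of coding genes kept as much. The 9853 bp region covers all of Pcna and runs on over Tmem230, so its reads belong to both genes.

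The 6 subunits of the MCM helicase, which unwinds DNA at the replication fork, stayed near the general level, with 12.1% to 17% kept. Of these, 3 fell in share and 3 did not pass. Mcm2 (chr6:88894220-88898831) went from 444, 443 and 506 to 59, 61 and 48 reads, without overlap in share, and fell by 0.50 on the log2 scale (SE 0.12, edgeR adjusted p = 0.00058). Relative to the coding-gene median it lay between -0.24 and -0.22, and 80.4% of coding genes kept at least as much. Mcm6 had 906, 1025 and 1086 reads against 159, 153 and 124, and its share fell by 0.24 (SE 0.08, edgeR adjusted p = 0.0215). Mcm3 had 929, 865 and 1031 reads against 137, 152 and 123, and its share fell by 0.23 (SE 0.09, edgeR adjusted p = 0.0349). The groups of Mcm6 and Mcm3 did not overlap in share, but both calls were lost with TMM factors (adjusted p = 0.425 and 0.508) and without SGC0946 replicate 3 (0.261 and 0.224). The call of Mcm6 was also lost without DMSO replicate 2 (0.0599), and that of Mcm3 without DMSO replicate 1 (0.0638) or SGC0946 replicate 1 (0.164).

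Mcm4 had 179, 196 and 207 reads with DMSO and 31, 45 and 23 with SGC0946, and kept 17%. The shares of Mcm4 overlapped between the groups, and its log2 change of -0.01 did not pass. The 2 subunits of ribonucleotide reductase, which makes deoxynucleotides, kept 16% (Rrm1) and 15.1% (Rrm2, with a mean of 72.7 DMSO reads), and neither passed. Tyms, the thymidylate synthase, had 192, 208 and 248 reads against 29, 44 and 40. It kept 17.4%, with overlapping shares and a log2 change of 0.03 that did not pass.

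Mitotic genes held the highest values. Of 20 genes, 4 rose in share, 8 fell and 8 did not pass, with a median log2 share change of -0.15 and a median of 15.4% kept. Mki67 kept most of all 40 genes. Its region (chr7:135694027-135716709), 22683 bp long and covering 84.1% of the gene, had 4481, 4814 and 5393 reads with DMSO and 2107, 1902 and 2026 with SGC0946. The share went from 268, 283 and 276 CPM to 673, 633 and 686 CPM. All SGC0946 libraries thus lay more than 2-fold above all DMSO libraries in share, while their counts were below. The log2 share change was 1.27 ± 0.04 (SE, edgeR adjusted p = 3e-38), the unscaled change -1.28 ± 0.10. Only 1.49% of coding genes kept as large a part, and Mki67 still rose with scaling on the sparsest regions (log2 0.45, adjusted p = 0.0293).

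Smc4, a core subunit of the condensin complexes that compact mitotic chromosomes, came next. Its region (chr3:69004815-69019955) had 3358, 3876 and 4325 reads against 1157, 1038 and 1113, and kept 28.6%. The shares of 201, 228 and 222 CPM and of 369, 345 and 377 CPM did not overlap, with a log2 change of 0.75 ± 0.05 (SE, edgeR adjusted p = 3.4e-22), though scaling on the sparsest regions gave -0.07. As large a part was kept by 4.17% of coding genes. The region also holds the miRNA genes Mir15b and Mir16-2, whose products are known to repress cyclin mRNAs. Their 5p arms are shown from RefSeq because both carry the same seed (bases 2 to 8, in capitals), and their RNA was not measured here.
miR-15b-5p: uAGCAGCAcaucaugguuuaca
miR-16-5p: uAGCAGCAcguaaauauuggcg

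Kif11, the motor that separates spindle poles, had the highest read density of all members, 398 DMSO reads per kb, above 99.8% of tested regions. Its region (chr19:37376157-37387125) had 4278, 3679 and 5128 reads with DMSO and 1143, 1113 and 799 with SGC0946, and kept 23.3%. In share these were 256, 217 and 263 CPM against 365, 370 and 271 CPM, so that the lowest SGC0946 library, replicate 3, came close to the highest DMSO library. Of coding genes, 8.42% kept as much. The log2 change was 0.45 ± 0.06 (SE, edgeR adjusted p = 1.8e-09) and -0.39 with scaling on the sparsest regions. DMSO replicate 2 and SGC0946 replicate 3 were also the lowest of their groups in the nearest upstream region averaging 50 counts or more. That region lies in no annotated coding gene and had 28.4, 14.2 and 28.9 CPM against 23.9, 31.6 and 14.6 CPM.

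Top2a, the topoisomerase that untangles sister chromatids, was named after its values were seen. It had 1316, 1342 and 1651 reads against 264, 297 and 333, and kept 20.7%, a part reached by 12.5% of coding genes. Its shares of 78.6, 79 and 84.6 CPM against 84.3, 98.8 and 113 CPM overlapped, with a log2 change of 0.28 ± 0.07 (SE, edgeR adjusted p = 0.00059). The call was lost without SGC0946 replicate 3 (log2 0.18, adjusted p = 0.0721), and the change was -0.53 with scaling on the sparsest regions.

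At the other end stood Ccnb1, which encodes cyclin B1, the partner that activates Cdk1 for entry into mitosis. The region of Ccnb1 (chr13:100783034-100786664) had 477, 523 and 606 reads against 71, 60 and 55, and kept 11.6%. Its share fell by 0.56 on the log2 scale (SE 0.12, edgeR adjusted p = 6e-05), with no overlap, and 87.2% of coding genes kept at least as much. Plk1, the polo-like kinase, went from 615, 593 and 688 to 101, 77 and 70 reads and its share fell by 0.39 (SE 0.11, edgeR adjusted p = 0.00255). Cenpf, a kinetochore protein, went from 418, 463 and 545 to 52, 66 and 67 reads and also fell by 0.39 (SE 0.12, edgeR adjusted p = 0.00773). These groups did not overlap in share. With TMM factors the call of Ccnb1 held, while those of Plk1 (adjusted p = 0.0734) and Cenpf (0.112) were lost. Without SGC0946 replicate 3 the call of Plk1 was lost as well (0.0543), and without SGC0946 replicate 1 that of Cenpf (0.211).

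The other mitotic genes that fell in share were Cdk1, the mitotic kinase (15.0% kept), Aurka, the spindle pole kinase (13.9%), its activator Tpx2 (14.8%), the checkpoint kinase gene Bub1b (13.4%) and Smc2, the partner of Smc4 in condensin (14%). The Aurka region also covers the mRNA processing gene Cstf1. Of these calls that of Bub1b held with TMM factors but was lost with both DESeq2 settings, and the others were lost under each of these. Smc2 (edgeR adjusted p = 0.0498) was also lost without DMSO replicate 3 or any 1 of the SGC0946 libraries, and Cdk1 and Tpx2 were lost without SGC0946 replicate 1. Those that did not pass were Cdc20, which activates the anaphase-promoting complex (16.4%), the cyclin genes Ccna2 (15.8%) and Ccnb2 (15.7%), Wee1, the kinase that restrains Cdk1 (15.6%), the checkpoint kinase gene Bub1 (15.6%), the Aurora kinase gene Aurkb (15.1%) and the motors Kif20b (16%) and Cenpe (14.7%). Without Mki67, Smc4, Kif11 and Top2a the remaining 16 mitotic genes kept 11.6% to 16.4%. These 4 were set aside because of their values.

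**Figure D3:**
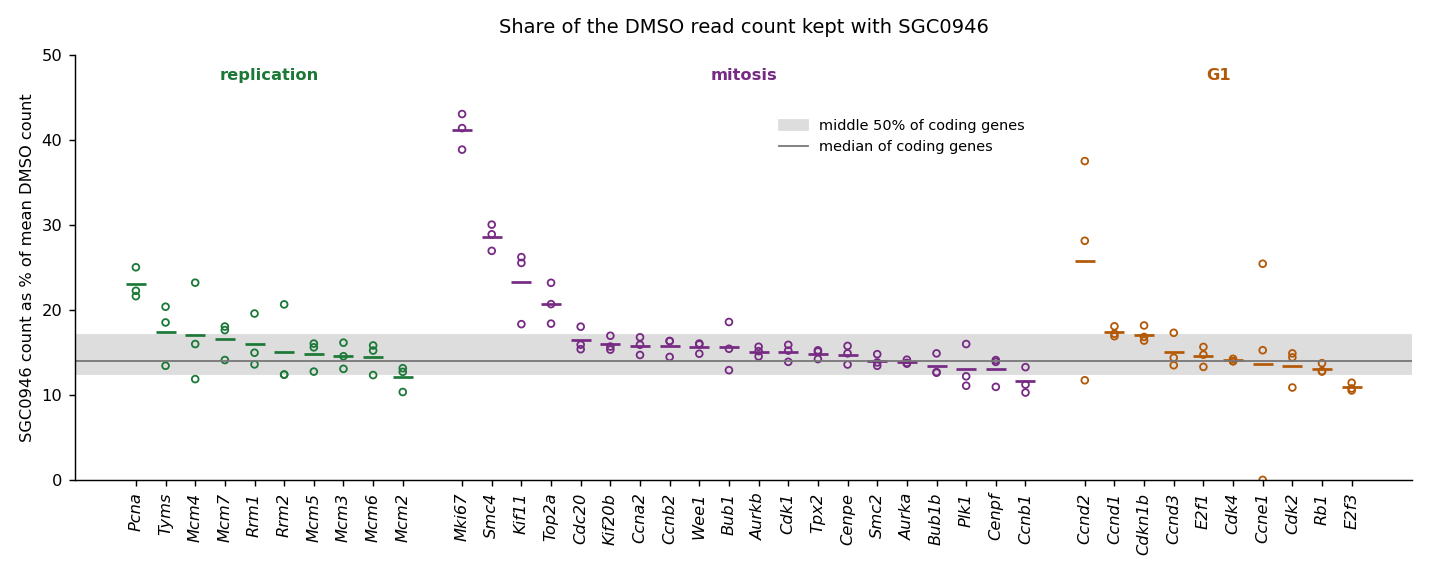
Percent of the mean DMSO count kept in each SGC0946 library (points) and on average (bars) for the 40 genes by group, with the median (line) and middle 50% (band) of coding genes. Mki67, Smc4, Kif11, Top2a and Pcna, whose shares rose with library totals, stand above the band at 20.7% to 41.1%. With scaling on the sparsest 25% of regions the changes of these genes except Mki67 were negative. Ccnd2, with few reads and no call, also stands above the band at 25.8%. Ccnd1, Tyms (both 17.4%) and Cdkn1b (17.1%) lie just above it.

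Between the 3 roles the medians differed little. Relative to the coding-gene median, the median log2 share change was 0.13 to 0.15 for replication, 0.12 to 0.14 for mitosis and 0.01 to 0.03 for G1 over 5 scalings. In each SGC0946 library alone the median percent kept was 15.9, 15.9 and 12.9 for replication, 15.6, 15.2 and 14.9 for mitosis and 14.8, 15.3 and 13.4 for G1, so the order of the groups changed with the library. The members were chosen as lists, and these medians carry no test.

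Sums over the groups, in which strongly marked genes weigh most, lay further apart. The 20 mitotic regions together held 1795, 1847 and 1869 CPM with DMSO and 2344, 2328 and 2343 CPM with SGC0946. The 10 G1 regions held 915, 911 and 911 CPM and then 672, 711 and 702 CPM. For the 10 replication regions the sums were 354, 368 and 355 CPM and 374, 367 and 341 CPM, which overlapped. Mki67 and E2f3 weighed heavily in these sums. Without Mki67 the mitotic sum went from 1527, 1564 and 1592 to 1672, 1695 and 1657 CPM, and the percent of its count kept from 21.7% to 18.3%.

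Partner genes of one complex or step were compared within each library as log2 ratios of their counts, in 8 pairs chosen with the values known. Smc4 over Smc2 stood at 2.80, 3.09 and 2.84 with DMSO and 3.93, 3.87 and 4.01 with SGC0946, a difference of 1.03 (exact 2-sided permutation p = 0.1, the smallest that 3 against 3 libraries can give, Benjamini-Hochberg adjusted p = 0.267 over the pairs). The ratio of Ccnd1 to Cdk4 was 0.31 higher with SGC0946, also without overlap (exact permutation p = 0.1, adjusted p = 0.267). Ratios overlapped between groups for Tpx2 and Aurka, Cdk1 and Ccnb1, Rrm2 and Rrm1, Bub1 and Bub1b, Kif11 and Kif20b, and Cenpe and Cenpf.

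The surroundings of the 5 genes that rose were lower in most cases. Only tested regions averaging 50 counts or more were taken as neighbours, so weaker regions can lie closer. A further region at the far end of Mki67 (2483 bp) kept 12.9%, and the nearest 2 such neighbours on each side kept 11.1% to 13.0%. The nearest of these neighbours lay 30585 bp away in Ptpre, and the nearest of them on the promoter side was 1720862 bp away in Glrx3. Smc4 was different, since the region of the importin gene Kpna4 at 78230 bp rose in share too and kept 30.2%. The other 7 regions over Smc4 kept 11.5% to 22.2%. The strongest of them (15.6%, with a mean of 1935 DMSO reads) also overlaps the gene Trim59, so its reads cannot be credited to Smc4 alone. For Pcna the closest neighbour averaging 50 counts or more, at Cds2, kept 18.8%, with shares that overlapped.

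**Figure D4:**
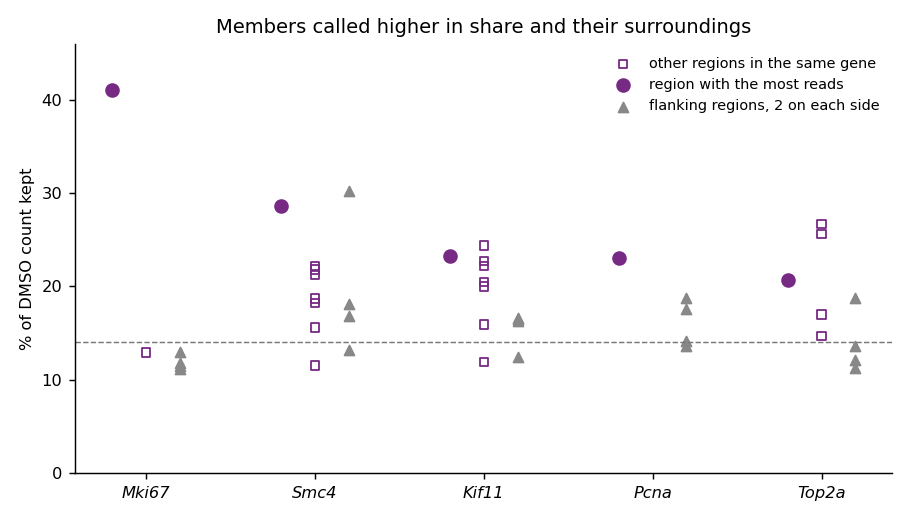
Percent of the mean DMSO count kept at the 5 genes that rose in share with library totals. Filled circles are the region with the most reads, and open squares are other regions over the same gene. Triangles are the nearest 2 flanking regions on each side that were tested and average 50 counts or more. The dashed line is the coding-gene median of 14%. The Mki67 region stands alone at 41.1%, while Smc4 has a flanking region (Kpna4) at 30.2%; the share changes of Smc4, Kif11, Pcna and Top2a were negative with scaling on the sparsest 25% of regions.

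All 5 genes that rose belonged to the 13 members in the densest 10% of tested regions (167 to 570 DMSO reads per kb). Of those 13, 3 fell, and of all regions in that class 28.2% rose and 50.3% fell. In the next class down (107 to 167 reads per kb) 0 of 13 members rose and 6 fell, against 1.75% and 81.7% of regions. The class after that (73.2 to 107) held 8 members, of which 6 fell, against 62.3% of regions. Within the densest class, 2.14% of 2337 regions kept as much as Mki67, 7.45% as much as Smc4, 14.7% as much as Kif11, 15.3% as much as Pcna and 20.7% as much as Top2a. Across the 40 genes, which share the same 6 libraries, the log2 share change and log2 DMSO density had Pearson's r of 0.316 and Spearman's rho of 0.329, and without Mki67 0.274 and 0.284. Over the 20 mitotic genes these were 0.536 and 0.537, over the 10 replication genes 0.243 and -0.0303, and over the 10 G1 genes -0.0844 and 0.164. Over the 11055 regions with a mean of 50 counts or more they were 0.101 and -0.103. The DMSO counts enter both the share change and the density, so the correlations are not between independent measures. The part of density in the rises was not tested.

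**Figure D5:**
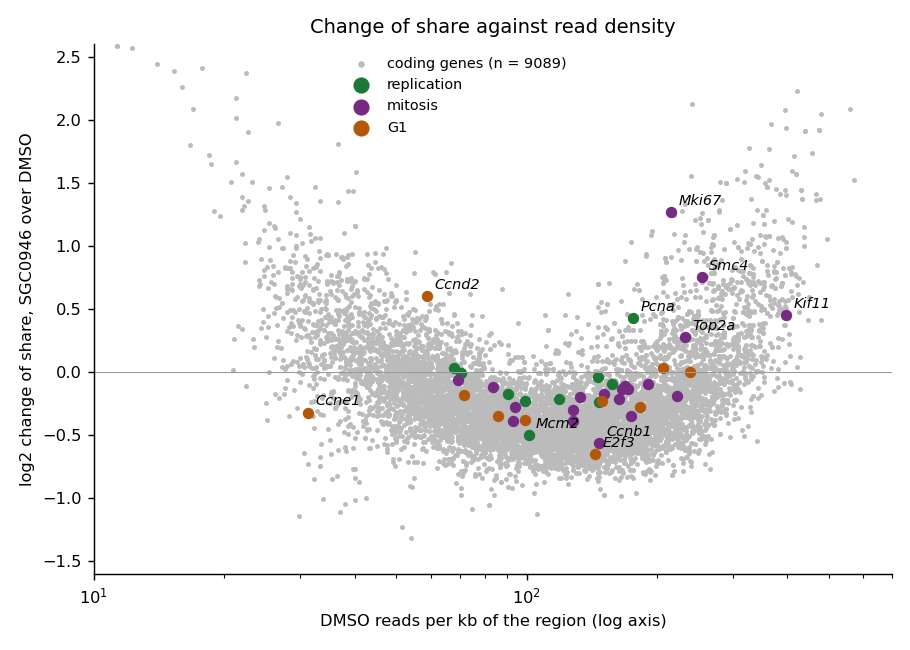
Log2 change of share (SGC0946 over DMSO, library totals) against DMSO reads per kb of the region (log axis) for 9089 coding genes (grey, 42 of them outside the axes) and the 40 members by group. Mki67 lies at 1.27, where 2.14% of the densest class of regions kept as much, and the members near 100 reads per kb lie below 0 like most other genes there; Smc4, Kif11, Pcna and Top2a lie below 0 with scaling on the sparsest 25% of regions.

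Other genes of the same processes were read from the same fit. Of 113 such genes with a region, 11 rose in share, 44 fell and 58 did not pass, and all 113 fell on unscaled counts. Of coding genes 9.98% rose and 50.1% fell in share, and 99.8% fell on unscaled counts. Among 45 replication genes, 17 fell and 2 rose, by regions shared with other genes. The region counted for Orc6 (22.6% kept, log2 0.41, edgeR adjusted p = 4.4e-12) reaches 12959 bp upstream over Vps35. The one counted for Orc3 (22.1%, 0.37, 6.4e-11) overlaps 316 bp of that gene, 0.656% of its length, and lies mainly over Akirin2, so neither rise can be credited to the origin recognition gene. Lowest were the histone chaperone gene Asf1b (10.9% kept) and the thymidine kinase gene Tk1 (11.1%), whose region also overlaps Afmid and Syngr2. Among 44 mitotic genes, 7 rose and 16 fell. The highest were Rad21, a cohesin subunit (26.6% kept, log2 0.64, edgeR adjusted p = 6.7e-21, in a region shared with the gene model Gm52217), and Incenp of the chromosomal passenger complex (24.0%, 0.49, 7.9e-17). The lowest were the checkpoint gene Bub3 (11.1%) and Ncapd3 of condensin II (11.4%), whose region also overlaps Vps26b. Among 24 G1 genes, 2 rose, the inhibitor genes Cdkn1a (20.4%, log2 0.26, edgeR adjusted p = 2.2e-05) and Cdkn2c (19.9%, 0.22, 0.00108), and 11 fell. By share change E2f2 (9.42% kept) and the E2F partner gene Tfdp1 (11.2%) were lowest, next to the ubiquitin ligase gene Skp2 (11.1%), in a region shared with Lmbrd2 and named after its values were seen. With scaling on the sparsest regions 0 of the 113 rose, against 0.681% of all regions tested. Nek2, Cdkn1c, Cdkn2a and Cdkn2b had no region.

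The labelled cell type was checked on marker genes. All 10 macrophage markers had a region, with summed shares of 1330 to 1370 CPM with DMSO and 1570 to 1670 CPM with SGC0946. Among them Cd68, whose region also overlaps Eif4a1 and Senp3, held 221 to 229 CPM with DMSO and 366 to 383 CPM with SGC0946. Cd68 (log2 0.73), Mrc1 (0.34) and Msr1 (0.42) passed the test as higher in share, and Mertk (-0.57) passed as lower. Adgre1, Csf1r, Itgam, Lyz2, Spi1 and Fcgr1 did not pass. Of 22 markers of other blood cells 5 had a region, summing to 101 to 104 CPM with DMSO and 79.2 to 86.8 CPM with SGC0946. Nearly all of that lay in the region of Zbtb46, which overlaps Arfrp1 and Zgpat. The other 4 (Lck, Mpo, Klf1 and Kit) had regions of 500 bp with 1 to 9 reads per DMSO library, of which 2 were tested, and summed to 0.82 to 1.25 and 6.65 to 9.90 CPM. Of 16 stromal and endothelial markers 2 had a region, with 3.76 to 6.00 and 5.65 to 9.48 CPM. Cd3e, Ly6g, Gata1, Col1a1 and Pecam1 were among those without a region. The part of other cells in the values of the 40 genes was not tested.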

How the data were processed

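H3K79me2 ChIP-seq was compared between 3 DMSO and 3 SGC0946 libraries. The table deposited by the authors holds whole-number read counts per region. The genome build mm10 and the tools R 3.6.3, ChIPseeker 1.20.0, bedtools 2.27.0, HOMER 4.11.1 and HISAT2 are listed in the submitters' processing notes. How regions were called and reads counted, whether samples were pooled for calling, and what was done about duplicates are details not given in the sources used here, and each could change the counts. The labels name 1 input sample, not used here because the table has no column for it, so densities are not relative to input. Libraries were single 50 bp reads at a nominal 40 M, from chromatin fixed with 1% formaldehyde for 10 min and pulled down with antibody clone NL59.

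Regions were matched to the RefSeq spans of genes (GRCm38.p6, which is the assembly behind mm10) in Python 3.11.15. The whole table was fitted in edgeR 4.0.16 (R 4.3.3) with glmQLFit and glmQLFTest, filterByExpr, library totals as sizes with factors of 1, and Benjamini-Hochberg adjustment over all 23367 regions tested, and again with equal library sizes (24895 regions) for unscaled counts. Standard errors were computed from each fold change with its F statistic. Fold changes depend on the library totals, since no spike-in is named. Counting precision is set by the reads per region, given with each gene. Replicates differed beyond sampling noise (chi-square per degree of freedom 1.32 to 2.38), so each counted as 1 sample. The edgeR p-values rest on a spread between samples that is moderated over all regions fitted. Very small p-values moved with the count filter. For Mki67 the edgeR adjusted p was 3e-38 here, 8.3e-21 when regions averaging under 50 reads were dropped and 4.3e-214 without a filter. Its log2 share change was 1.27 each time. The same 5 genes rose in these fits, and 15, 16 and 14 fell, against falls in 23.3%, 51.6% and 18.6% of all regions tested. On simulated counts for this comparison, with 22526 regions tested and a dispersion of 0.002 for all, edgeR recovered 55% of regions changed 1.5-fold, 76% at 2-fold and 97% at 4-fold, all drawn from regions averaging 20 counts or more.

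Per-library values are given for Mki67 and for the 3 highest and 3 lowest genes by share change in each role. Other pathway genes are named when they are the highest or lowest 2 of their role past the threshold and average 50 counts or more. Members, lists and rules were chosen with earlier results of these data known. Alternatives covered scaling (TMM, DESeq2 1.42.0 size factors, the sparsest 25% of regions), the DESeq2 Wald test, count filters, summed regions, regions over no other coding gene, background subtraction, a replicate block and each library left out. The mitotic sum without Mki67, and leaving out libraries for the partner pairs, were added after the data were seen.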

Additional observations from a re-analysis of the deposited data

How the results depend on the processing

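All 40 genes fell on unscaled counts under every alternative run, as did 92.4% to 99.7% of all regions tested. The number that fell in share, 15 with library totals, was 5 after TMM, 4 after DESeq2 size factors, 4 by its Wald test and 36 when libraries were scaled on the sparsest 25% of regions, which left 1 rise. Of all regions tested, 23.3% fell with library totals, and 15.1%, 13.8%, 9.63% and 68.3% under these settings in turn. The 5 rises held under TMM and both DESeq2 settings, so rises were 5 of 20, 5 of 10, 5 of 9 and 5 of 9 calls. Among the 113 other pathway genes (11 rises, 44 falls) falls numbered 25 after TMM, 21 after DESeq2 size factors and 22 by its Wald test. The sparse scaling gave 103 falls and 0 rises, where 0.681% of all regions tested rose. TMM, DESeq2 factors and the Wald test moved the coding-gene median by 0.14, 0.15 and 0.13. Changes that reversed with the sparse scaling were those of Ccnd1 (-0.79), Cdkn1b (-0.82), Tyms (-0.81), Top2a (-0.53), Pcna (-0.40), Kif11 (-0.39) and Smc4 (-0.07). That of Ccnd2, which passed under neither, went from 0.60 to -0.26. This scaling lowers all regions by construction. With each library left out, 8 (without SGC0946 replicate 1) to 18 genes fell and 5 rose each time, with Ccnd2 in place of Top2a without SGC0946 replicate 3. Over these fits the median percent kept ran from 14.5 to 16.2 for all members, 14.2 to 16.3 for replication, 14.6 to 16.2 for mitosis and 13.9 to 15.7 for G1. Subtracting background reads per kb gave 11.7, 11.2, 12.4 and 10.0, and summing all regions of a gene gave 15.3 for G1. The cause of these shifts was not tested. The replicate block gave 5 rises and 14 falls, losing Smc2, against rises in 6.05% and falls in 22.3% of all regions tested. The sample titles use the same replicate numbers in both groups, without saying whether same-numbered libraries share a mouse. Same-numbered libraries did not deviate together (correlations 0.009, -0.114 and -0.012, against -0.098 to 0.102 for the other pairs). Such small correlations cannot show whether the numbers pair them. Genes under 50 mean counts (Ccnd2, Ccne1 and Rrm2) are limited by depth.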

Other observations

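Several of the cell cycle genes had small further regions beside the one that stands for them. A region at Ccnd3 had a mean of 1.33 reads with DMSO and 6.00 with SGC0946, and one at Cenpe had 2.67 and 7.00. Both passed the count filter through SGC0946 and were called higher in share. The 4 further regions of Top2a kept 14.7% to 26.7% and the 7 further regions of Kif11 kept 11.9% to 24.4%, and none of those tested passed. Tpx2 holds the miRNA gene Mir5622 in its main region, which kept 14.8%.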
